A study of Homo sapiens with 12 samples.

Results

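The wild-type MEF2C line is a culture of OCI-AML2, an established human acute myeloid leukaemia line, that carries a doxycycline-inducible construct for MEF2C without a point mutation. Its 6 libraries are all those titled MEF2C WT, out of 12 in the series: 3 from cells given vehicle (called uninduced) and 3 from cells given doxycycline (called induced). The other 6 come from another OCI-AML2 line, whose inducible MEF2C carries the S222A change, a serine replaced by alanine, in 3 uninduced and 3 induced libraries. Each culture, of 3 ml, received 600 ng of doxycycline, or vehicle, 48 h before RNA was taken. Both lines were grown from single cells, the number of clones behind each is not stated, and so one clone may stand for a line. The promoter of the construct is not named in the labels, and OCI-AML2 cells given doxycycline without a MEF2C construct are not analysed here. The labels do not describe replicates as coming from different cultures. The p-values then measure only how these samples vary, possibly for technical reasons.

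MEF2C is a MADS-box transcription factor that binds A/T-rich elements and acts in muscle, neurons and blood. In blood it works in early progenitors and in the lymphoid and monocyte branches, and its overexpression is a known feature of some acute leukaemias. Class IIa histone deacetylases bind MEF2 factors and hold their targets silent, and kinases that phosphorylate these deacetylases or MEF2 itself change that balance. The series title ties MEF2C phosphorylation to resistance to chemotherapy, and the line with unmutated MEF2C is the one in which the serine is kept.

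Of 55765 genes in the table, 25305 had at least 1 count in the WT line and 30460 had none. The 11474 genes that passed the filter on low counts held 99.28 to 99.59% of the counts of each WT library. Totals ran from 875710 to 7294463 counts, an 8.33-fold range, so the floor of 3 counts lay at 0.411 to 3.43 CPM (counts per 1e6 counts), a limit that includes counting error alone. The deepest library of each group, uninduced replicate 2 with 5412391 counts and induced replicate 1 with 7294463, stood apart from the rest: on the first principal component of the 6 libraries, with 55.8% of the variance, they lay at 47.3 and 48.2 and the other 4 between -51.6 and -6. In all 12 libraries, 4410 genes (38.4%) were called between the deepest libraries and the others, so the count of called genes and the genes it holds are also given with a term for them. Of 12 myeloid markers, PTPRC (CD45) was at 514 to 703 CPM, FLT3 at 63.7 to 83.5 and CSF3R at 57.6 to 75.7. SPI1 was at 42.7 to 72.7 CPM and CD33 at 30.6 to 47.9. Lower levels were seen for MPO (4.45 to 19.2 CPM), LYZ (4.62 to 11.5) and KIT (0.406 to 4.45). ANPEP (CD13) held 9 counts over all WT libraries. CEBPA, CD34 and IL3RA were at 0 in every WT library, and so were all 8 pseudoautosomal genes of a list drawn up after the 0 of IL3RA, one of the 8, was seen. Of 9 epithelial and stromal genes, EPCAM, KRT18, KRT19 and COL3A1 were at 0, and the cadherin gene CDH1 was present at 14.6 to 36.9 CPM.

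MEF2C RNA did not differ detectably after doxycycline. It stood at 746.9, 645.3 and 816.7 CPM in uninduced replicates 1 to 3 and at 674.4, 844.1 and 812.4 CPM in induced replicates 1 to 3. The groups overlapped, and the lowest library of each group was its deepest one. The log2 fold change was 0.08 ± 0.16 (SE; edgeR quasi-likelihood test, Benjamini-Hochberg adjusted p = 1), a fold of 1.05 with a 95% interval of 0.826 to 1.35. It was 0.06 between the deepest libraries, 0.08 between the other 4, and -0.009 with uninduced replicate 2 left out. An increase of total MEF2C RNA above 1.35-fold therefore lay outside the interval, and a smaller one was not detectable at this spread. The counts are per gene symbol and do not separate the construct from the endogenous gene, or, with no strand setting given, MEF2C from its antisense neighbour MEF2C-AS1.

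Among 11474 genes tested, 1 was called at an adjusted p under 0.05, which is 0.00872% of them. That gene was BTG2, an antiproliferative gene of the BTG/TOB family and a known p53 target. BTG2 stood at 7.07, 7.53 and 7.35 CPM without doxycycline (14, 39 and 18 counts) and at 21.63, 17.94 and 20.53 CPM with it (148, 16 and 78 counts). Every induced library lay far above every uninduced one, and each group was tight, at 7.32 ± 0.236 and 20.03 ± 1.9 CPM (SD, n = 3). BTG2 rose 2.77-fold (95% interval 2.06 to 3.71; log2 1.47 ± 0.20 SE; adjusted p = 0.0498). To be the only called gene, BTG2 at its own spread needed a log2 change of 1.4688, and it had 1.4694. The rise was 1.47 on the log2 scale between the deepest libraries and 1.36 between the other 4. Its size stayed at 1.41 to 1.52 under every alternative, but leaving out any 1 of the 6 WT libraries ended the call, with adjusted p from 0.099 to 0.483. Upper quartile factors, limma-voom, a fit of the WT libraries alone, a replicate block and removal of the deepest libraries ended it too. With a term for the deepest libraries the adjusted p of BTG2 was 0.00395.

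**Figure D1:**
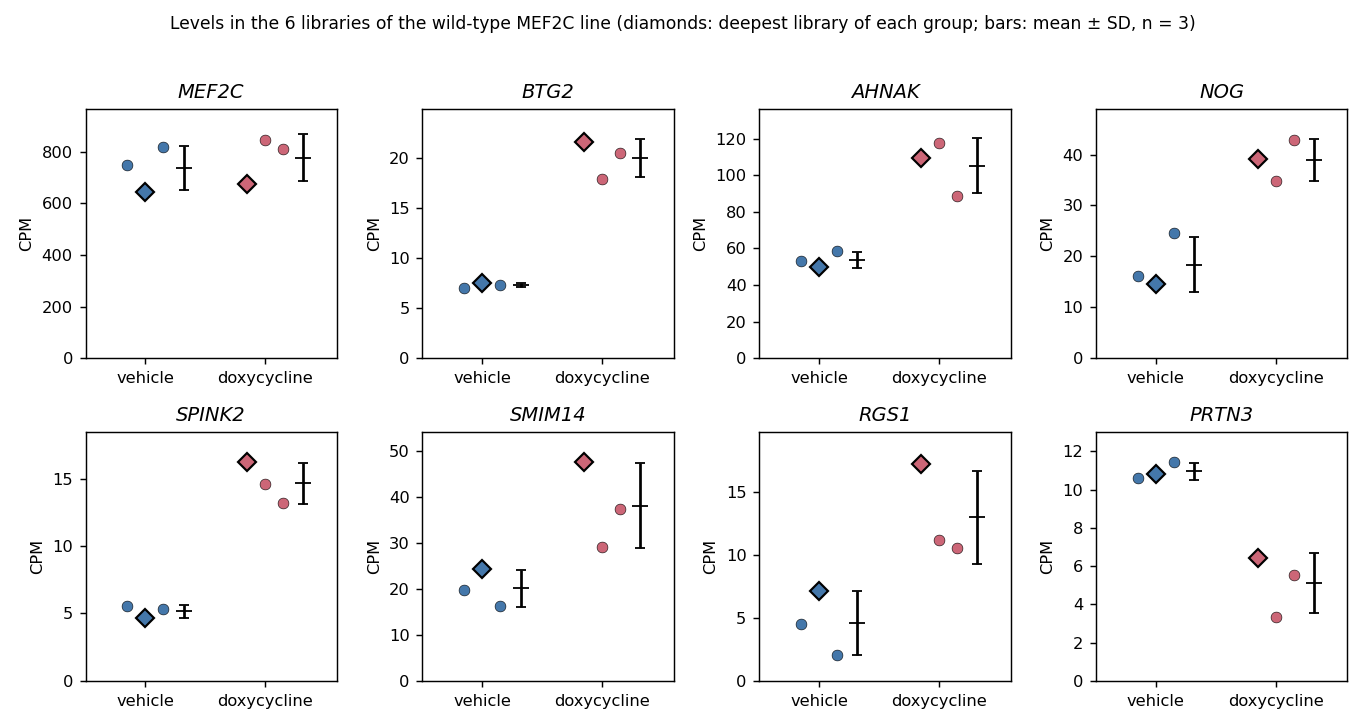
Levels (CPM, linear axes from 0) of 8 genes in each WT library by treatment, with diamonds for the deepest library of each group and bars for the mean ± SD of 3 libraries. MEF2C overlaps between the groups, the induced BTG2 libraries lie at 17.94 to 21.63 CPM above 7.07 to 7.53 CPM, and PRTN3 lies lower in all 3 induced libraries.

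The term for the deepest libraries, which removes what they share from the spread, raised the count of called genes to 6, or 0.0523% of those tested, all of them higher with doxycycline. BTG2 was one of them. AHNAK encodes a very large scaffold protein beneath the plasma membrane. It was at 52.99, 49.64 and 58.42 CPM with vehicle and 109.5, 117.7 and 88.42 CPM with doxycycline, with no overlap. Its log2 fold change was 0.96 ± 0.15 (SE), with an edgeR adjusted p of 0.146 without the term and 0.00395 with it. SPINK2, a serine protease inhibitor gene of stem and progenitor cells, was at 5.55, 4.64 and 5.31 CPM with vehicle and 16.22, 14.57 and 13.16 CPM with doxycycline. All 3 induced libraries lay above all uninduced ones, at a fold of 2.88 (95% interval 1.79 to 4.64; edgeR adjusted p = 0.807 without the term and 0.0355 with it). NOG encodes noggin, a secreted antagonist of bone morphogenetic proteins. It was at 16.15, 14.49 and 24.51 CPM with vehicle and 39.17, 34.75 and 42.9 CPM with doxycycline, a fold of 2.16 (95% interval 1.54 to 3.04). Its adjusted p from edgeR was 0.807 without the term and 0.0179 with it.

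The last of the 6 were SMIM14 and RGS1, both with an edgeR adjusted p of 1 without the term and 0.0179 with it. SMIM14, which encodes a small membrane protein, was at 19.68, 24.34 and 16.34 CPM with vehicle and 47.65, 29.15 and 37.37 CPM with doxycycline. RGS1 encodes a regulator that turns off G protein signalling in leukocytes. It was at 4.54, 7.15 and 2.04 CPM with vehicle and 17.25, 11.21 and 10.53 CPM with doxycycline. In both genes the deepest library was the highest of its group, and both were themselves called higher in the deepest libraries over all groups, by 0.29 (SMIM14) and 0.59 (RGS1) on the log2 scale. Within depth classes the doxycycline difference was 0.96 between the deepest and 0.86 between the other libraries for SMIM14, and 1.22 and 1.68 for RGS1. Without the deepest libraries none of the 6 was called by edgeR (0 genes in all; 322 had an unadjusted p under 0.05).

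Sequence upstream of BTG2 and RGS1 is shown for base composition and motifs. Among the 5 of the 6 genes called with the term that matched a window (NOG did not), they differ most in base composition. Each also holds one of the promoter motifs searched. The windows are the 250 bases before the RefSeq start in GRCh38.p14, read on the plus strand. That build serves for the sequence only, since the counts were made on hg19 per the submitters' processing notes. BTG2 (chr1:203305269-203305518) has a GC content of 74.8%, and the capitals mark a CCAAT match whose first base is at position -76. RGS1 (chr1:192575523-192575772) has a GC content of 39.2%, and the capitals mark a TATAAA match at position -27.
BTG2: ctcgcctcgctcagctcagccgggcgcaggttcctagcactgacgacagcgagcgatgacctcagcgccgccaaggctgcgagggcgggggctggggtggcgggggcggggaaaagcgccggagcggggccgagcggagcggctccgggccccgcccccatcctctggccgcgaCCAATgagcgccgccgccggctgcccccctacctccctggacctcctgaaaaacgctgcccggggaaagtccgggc
RGS1: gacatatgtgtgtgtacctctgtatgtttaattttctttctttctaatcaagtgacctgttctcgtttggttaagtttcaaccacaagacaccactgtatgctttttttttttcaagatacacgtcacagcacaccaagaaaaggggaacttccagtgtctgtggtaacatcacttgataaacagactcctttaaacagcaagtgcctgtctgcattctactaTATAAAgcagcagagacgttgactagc
The median GC content of all 35116 such windows was 58%. A CCAAT on either strand occurred in 32% of them and a TATAAA in 10.7%. In the 12572 windows of tested genes these shares were 33.4% and 5.87%. No window of BTG2, AHNAK, SPINK2, SMIM14 or RGS1 held the MEF2 box (in 2.8% of all windows and 1.54% of those of tested genes), the CArG box (1.16% and 1.07%) or the p53 consensus decamer (5.57% and 4.79%), each searched on both strands with overlaps counted. Only exact matches to each consensus were searched, so their absence says nothing about binding within these windows or elsewhere.

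Beyond these genes the data bound how large a change could have passed unseen. The unadjusted p was under 0.05 for 195 genes (1.7%), 139 higher and 56 lower. In 322 genes (2.81%) every induced library lay above every uninduced one, and in 342 (2.98%) below. The median size of change over all tested genes was 0.15 on the log2 scale, and 162 genes differed by more than 2-fold, 124 higher and 38 lower. Of those 162 genes, 136 had a mean level under 2 log2 CPM, where the interval of a typical gene is widest.

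Precision depended on level. For the 619 genes over 8 log2 CPM the 95% interval reached a median of 1.33-fold to either side of the estimate, and 94.2% of these genes had an interval wholly within a 2-fold change in either direction. For the 2466 genes at 6 to 8 log2 CPM the reach was 1.34-fold and the share 94.2%. It was 1.43-fold and 88% for the 4141 genes at 4 to 6, and 1.74-fold and 42.1% for the 2949 genes at 2 to 4. Below 2 log2 CPM the reach was 2.51-fold and only 1.23% of 1299 genes were bounded within 2-fold. In all, 7807 genes (68%) were bounded within 2-fold. Being the only called gene asked for more: a median change of 2.71-fold over 8 log2 CPM, 3.44-fold at 4 to 6, and 24.4-fold under 2, and a 2-fold change would have been enough in 70 genes (0.61%). In the other tested genes a lone 2-fold change would not have passed at the spread measured.

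Genes among those with the narrowest intervals show the best case. STK4, the Hippo pathway kinase MST1, was at 173.6, 185.4 and 170.4 CPM with vehicle and 185.8, 179.4 and 179.7 CPM with doxycycline, a fold of 1.03 (95% interval 0.856 to 1.24). NSL1, of the kinetochore, had a fold of 1.02 (0.843 to 1.23). In both the groups overlapped.

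**Figure D2:**
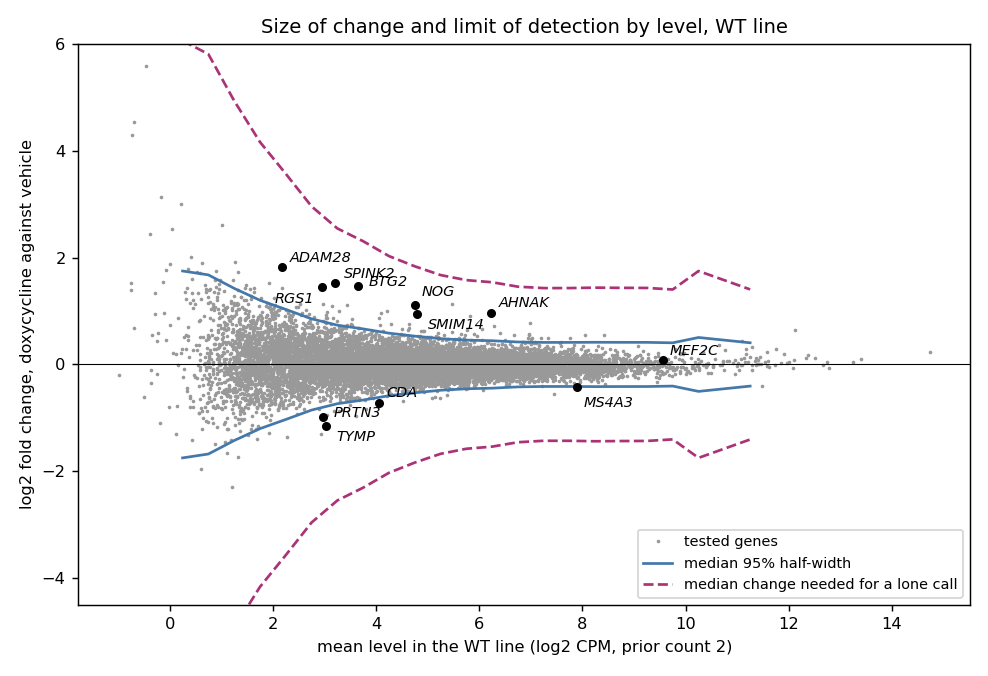
Log2 fold change with doxycycline against mean level (log2 CPM) for the 11474 tested genes, with the median reach of the 95% interval (solid) and the median change a gene needs to be the only one called (dashed), by level. BTG2 lies inside the dashed median because its own spread was lower than is typical at its level, and MEF2C lies near 0 where intervals are narrow.

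The next genes by p-value were not called in either fit, and their values stand as measurements. ADAM28, a membrane metalloprotease gene of lymphoid and myeloid cells, was at 2.02, 1.74 and 2.45 CPM with vehicle and 5.85, 12.33 and 6.32 CPM with doxycycline, a fold of 3.54 (95% interval 2.04 to 6.14). CAPG, which encodes an actin filament capping protein, stood at 95.4, 124.0 and 74.4 CPM with vehicle against 191.0, 154.7 and 158.4 CPM with doxycycline, a fold of 1.71 (1.22 to 2.41). HEXIM1, an inhibitor of the elongation factor P-TEFb, stood at 40.4, 43.7 and 37.2 CPM with vehicle against 56.0, 75.1 and 52.9 CPM with doxycycline, the order used throughout, a fold of 1.49 (1.16 to 1.9). LMNA, the lamin A/C gene, and RRAGB, a Rag GTPase of nutrient sensing, had folds of 1.6 and 1.9. CAPN11, a calpain, had the widest interval of the group, 2.06 to 18.1 around a fold of 6.11, from 0, 4 and 2 counts uninduced and 21, 8 and 9 induced.

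On the lower side the smallest p-value among genes without overlap belonged to PRTN3, the azurophil granule protease proteinase 3. It was at 10.6, 10.8 and 11.4 CPM with vehicle and 6.43, 3.36 and 5.53 CPM with doxycycline, and its log2 fold change was -0.98 ± 0.30 (SE; edgeR adjusted p = 1). PRTN3 rested on 21, 56 and 28 counts with vehicle and 44, 3 and 21 with doxycycline, and 3 counts is the floor. Its log2 difference was -0.71 between the deepest libraries and -1.26 between the others. CDA, cytidine deaminase, an enzyme that breaks down cytarabine, was at 21.7, 20.86 and 20.02 CPM with vehicle and 13.3, 12.3 and 12.1 CPM with doxycycline. Its groups were tight and far apart, at 20.86 ± 0.842 and 12.58 ± 0.635 CPM (SD, n = 3), yet they rest on 43 to 108 and 11 to 91 counts, and the log2 fold change of -0.72 had an SE of 0.24. TYMP, thymidine phosphorylase, stood at 11.6, 9.46 and 13.5 CPM against 3.65, 5.61 and 6.58 CPM. S100A8, a calcium-binding protein of neutrophils and monocytes, stood at 12.6, 9.46 and 17.6 CPM against 8.19, 5.61 and 6.58 CPM. For S100A8 the difference was -0.20 on the log2 scale between the deepest libraries and -1.23 between the others. TXNRD2 (-0.37 and -1.32) and ZNF689 (-0.14 and -0.95) showed the same split by depth, while TSPAN14 (-0.43 and -0.45), AGK (-0.63 and -0.77) and MED16 (-0.50 and -0.70) were closer in both. KCNH2 and C1orf85, at 0.263 to 5.05 CPM in the WT libraries, had log2 fold changes of -1.33 ± 0.48 and -1.65 ± 0.59 (SE). Their counts in induced replicates 1 to 3 were 12, 2 and 3 (KCNH2) and 10, 1 and 1 (C1orf85). In induced replicates 2 and 3 both were thus at or below the floor of 3 counts. KCNH2 had -0.68 between the deepest libraries and -1.30 between the others, and C1orf85 -0.63 and -1.90. Over the alternatives C1orf85 ran from -2.90, without the deepest libraries, to -1.16, without induced replicate 3, and leaving out induced replicate 1 alone also moved it further below 0.

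**Figure D3:**
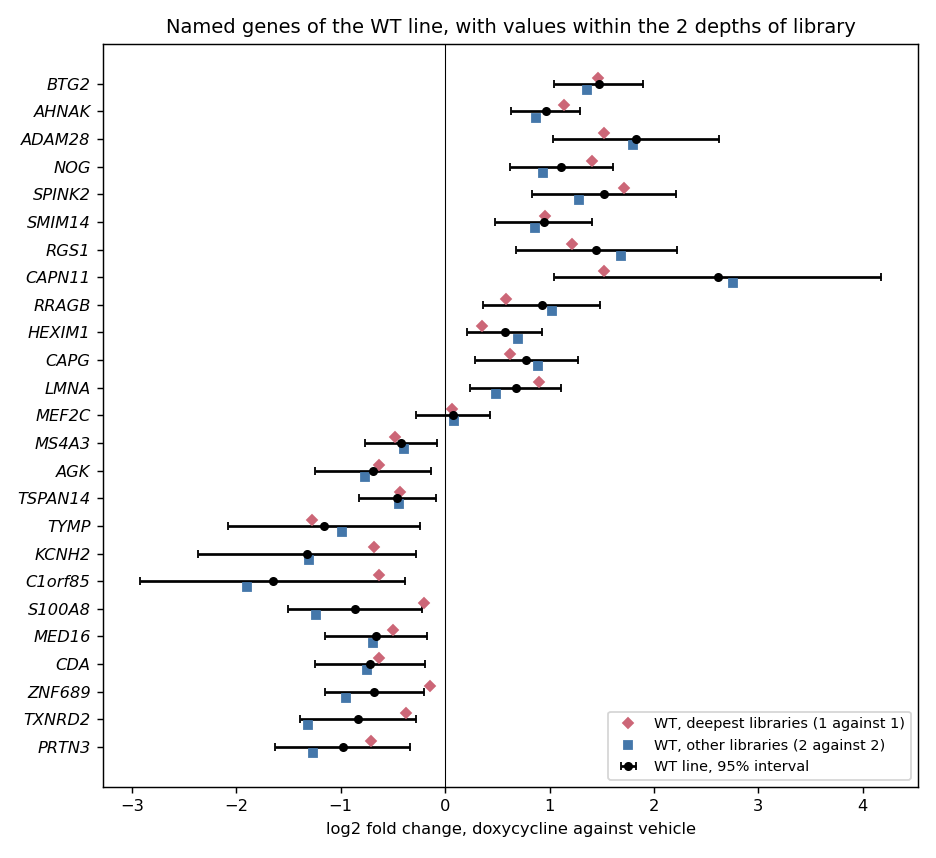
Log2 fold changes with 95% intervals of MEF2C and of the 12 higher and 12 lower genes with the smallest p-values in the WT line (black), with the difference between the deepest libraries (diamonds) and between the other 4 libraries (squares). All 24 genes besides MEF2C keep their sign at both depths. Many lie nearer 0 in the deepest libraries, among them S100A8, ZNF689, TXNRD2, KCNH2, C1orf85 and PRTN3 on the lower side. CAPN11, HEXIM1 and RRAGB do so on the higher side, and others, such as NOG, LMNA and TYMP, lie further from 0 there.

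The gene lists are described by counts and medians, beside 5869 positive and 5605 negative changes and a median of 0.006 over all tested genes. Not all 35 lists are described in the text. Among MEF2 factors and class IIa deacetylases, 7 of 8 members were tested and none was called. MEF2A was at 17.7, 7.34 and 16.3 CPM with vehicle and 10.1, 28.0 and 17.4 CPM with doxycycline, with the deepest library lowest in each group. MEF2D stood at 251.8, 391.9 and 272.5 CPM against 424.1, 218.6 and 275.0 CPM, with the deepest library highest, and its log2 fold change was 0.01 ± 0.34 (SE). HDAC7 also followed depth, at 50.97, 111.6 and 43.71 CPM uninduced and 158.7, 53.81 and 57.37 CPM induced. HDAC4 and HDAC5 had log2 fold changes of -0.18 ± 0.36 and 0.26 ± 0.36 (SE). HDAC9, itself a known MEF2 target, was the one member without overlap, at 36.3, 38.8 and 39.2 CPM against 42.4, 48.2 and 46.8 CPM, a fold of 1.19 (95% interval 0.909 to 1.56; unadjusted p = 0.184). The median log2 fold change of the 7 was 0.25, and it was 0.08 without uninduced replicate 2 and 0.08 without induced replicate 2.

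Genes reported elsewhere as MEF2 targets in blood, vessel or neuron were measured in 8 of 14 cases, with 5 positive and 3 negative changes, a median of 0.03 and none called. DUSP6, a phosphatase that shuts off ERK, was at 105, 116.7 and 88.2 CPM with vehicle and 179, 125.6 and 148.7 CPM with doxycycline, a fold of 1.47 (95% interval 1.11 to 1.95; edgeR adjusted p = 1, and 0.197 with the term for depth). KLF2, a quiescence factor of lymphocytes and endothelium, rested on 1 to 30 counts a library and had a fold of 2.27 (0.829 to 6.22). MARK and SIK kinases and their partners, 10 of 11 tested, split evenly into 5 positive and 5 negative changes with a median of 0.03.

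BTG2 was the only called member of both lists that hold it. Of the other 4 tested BTG and TOB genes none was called. TOB2, an antiproliferative relative, stood at 46.4, 50.2 and 53.5 CPM against 65.6, 48.2 and 62.1 CPM. Of 22 tested p53 response genes, 12 changes were positive and 10 negative, the median was 0.025, and BTG2 was the only one called. CDKN1A (p21), the canonical p53 target, was at 26.2, 41.3 and 27.0 CPM with vehicle and 49.7, 33.6 and 38.2 CPM with doxycycline, a fold of 1.29 (95% interval 0.947 to 1.76) with overlapping groups. PLK2, another p53 target, stood at 15.1, 16.0 and 16.8 CPM against 12.4, 11.2 and 9.74 CPM, a fold of 0.699 (0.502 to 0.974), lower in all 3 induced libraries. Of the p53 list 20 of 22 intervals lay within 2-fold. CDK inhibitors and G1 cyclins had a median of 0.13 over 13 tested genes, with CDKN2D at 35.8, 41.9 and 24.1 CPM against 63.9, 37.0 and 45.3 CPM.

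Proliferation genes leaned lower by little. Of 30 tested, 25 changes were negative, 5 positive, none was called and the median was -0.15, and 26 of the 30 intervals lay within 2-fold. BIRC5 (survivin) stood at 42.9, 46.6 and 44.1 CPM against 39.3, 23.5 and 34.7 CPM. MCM5, of the replicative helicase, stood at 128.7, 137.3 and 103.8 CPM against 115.8, 83.0 and 95.5 CPM. In 5 of the 30 the groups did not overlap, all lower, beside 342 lower (2.98%) and 322 higher (2.81%) of 11474 over all tested genes. The median stayed between -0.17 and -0.10 under every alternative.

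Granulocyte genes had the lowest median of the lists with at least 5 tested members. Of 14 tested members 13 changes were negative and 1 positive, none was called, and the median was -0.32, with 4 at an unadjusted p under 0.05, all lower. Over all 11474 tested genes 195 (1.7%) had such a p, 56 of them lower. The 4 were PRTN3, MS4A3, MPO and SRGN, of which the last 2 are named after their values were seen. MS4A3, a membrane protein of granulocyte precursors, was at 250.3, 325.3 and 253.7 CPM with vehicle and 233.3, 178.2 and 205.3 CPM with doxycycline, a fold of 0.746 (95% interval 0.587 to 0.948). MPO, the myeloperoxidase of azurophil granules, had a log2 fold change of -0.96 ± 0.37 (SE), and SRGN, the proteoglycan serglycin of granules, one of -0.41 ± 0.17. Summed over the list, the level was 5021, 4784 and 4892 CPM uninduced and 3643, 3636 and 4117 CPM induced, without overlap. Such a sum follows its most abundant members. MS4A3, PRTN3 and MPO are a small part of it, and the members that make up most of it are not shown here. It is therefore no measure of a change across the list. In bulk RNA, fewer cells of a type and less RNA per cell cannot be told apart. The median was -0.37 between the deepest libraries and -0.37 between the others, and it stayed between -0.44 and -0.29 under every alternative.

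Monocyte and macrophage genes, 7 of 18 tested, had 5 negative and 2 positive changes and a median of -0.29. That median ran from -0.531 (without induced replicate 3) to -0.013 (without induced replicate 1) over the alternatives. Their summed level was low, at 93.4, 103.5 and 98.2 CPM with vehicle and 71.2, 75.7 and 80.6 CPM with doxycycline. ITGAX (CD11c) went the other way, at a log2 fold change of 1.16 ± 0.57 (SE; unadjusted p = 0.0637). Myeloid transcription factors showed no such lean, with 6 positive and 7 negative changes and a median of -0.07. GATA2, a factor of progenitors and mast cells, lay higher in all 3 induced libraries at a low level, with a log2 fold change of 1.05 ± 0.70 (SE). CEBPD, a factor of myeloid differentiation, stood at 149.9, 103.5 and 130.3 CPM against 99.4, 98.7 and 113.4 CPM. HOXA, MEIS1 and stem cell factors had 8 positive and 2 negative changes and a median of 0.17, which ran from 0.08 to 0.215 over the alternatives. FLT3, the receptor kinase of early progenitors, stood at 74.2, 72.2 and 64.1 CPM against 76.0, 79.6 and 84.0 CPM, a fold of 1.14 (95% interval 0.927 to 1.39) without overlap. PBX3, a HOXA cofactor, had a fold of 1.15 (0.86 to 1.52). Of 18 symbols listed for the LSC17 stemness score, 17 were in the deposited counts and 9 were tested, with 8 positive changes and a median of 0.14. It ran from 0.004 (without induced replicate 3) to 0.317 (without the deepest libraries), and was -0.049 between the deepest libraries and 0.157 between the others. Of this list C19orf77 (SMIM24) stood at 3.53, 2.90 and 2.45 CPM against 4.53, 4.48 and 4.74 CPM.

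Of 18 tested NF-kB genes, 13 changes were positive and 5 negative, the median was 0.17 (0.056 to 0.294 over the alternatives) and none was called. TNFAIP3 (A20), which restrains NF-kB, was at 56.5, 48.3 and 51.5 CPM with vehicle and 72.4, 90.8 and 86.1 CPM with doxycycline, a fold of 1.59 (95% interval 1.17 to 2.16; unadjusted p = 0.0065). IL1B, a cytokine gene, stood at 2.52, 2.70 and 2.04 CPM against 4.53, 4.48 and 5.53 CPM, a fold of 1.98 (1.22 to 3.21). Its values rest on few counts, 5, 14 and 5 uninduced and 31, 4 and 21 induced. TNFAIP3 and IL1B both lay higher in all 3 induced libraries. Type I interferon-stimulated genes had 11 positive and 10 negative changes and a median of 0.08.

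Doxycycline itself can impair mitochondrial translation, so mitochondrial and stress lists were measured as a check of the treatment; doxycycline and MEF2C induction cannot be told apart within the line. Mitochondrially encoded mRNAs had 12 positive and 1 negative change in 13, a median of 0.19 and none called. MT-ND5 was at 1128, 1361 and 1834 CPM with vehicle and 1589, 2400 and 1610 CPM with doxycycline, and MT-ATP6 at 2735, 2987 and 3751 CPM against 3059, 4623 and 3893 CPM, both with overlap. All mitochondrially encoded RNA together, which is more than these mRNAs, made up 7.25, 5.03 and 7.6% of counts uninduced and 5.04, 9.27 and 8.33% induced. That share was lowest in the deepest library of each group. The 13 mRNAs alone were not: they summed to 24890, 36350 and 30350 CPM uninduced and 36020, 36780 and 30940 CPM induced. The list's median log2 fold change was 0.05 between the deepest and 0.23 between the other libraries. Nuclear respiratory chain genes had 35 negative and 7 positive changes and a median of -0.08, with 38 of 42 intervals within 2-fold. CYC1 stood at 235.2, 311.4 and 281.9 CPM against 271, 177.1 and 226.3 CPM. Mitochondrial ribosomal protein genes had 50 negative and 21 positive changes and a median of -0.07. The ATF4 axis of the integrated stress response, with 20 genes tested, had a median of -0.10 and no member called. SHMT2 stood at 162.5, 177.5 and 161.8 CPM against 152.9, 115.5 and 148.2 CPM, and TRIB3 at 45.4, 67.0 and 63.7 CPM against 52.5, 44.8 and 40.8 CPM. Of the 20, 18 intervals lay within 2-fold.

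Of 14 symbols listed for cytarabine transport and metabolism, 13 were in the deposited counts and all 13 were tested. They had 9 negative and 4 positive changes and a median of -0.08, with CDA the lowest. NME1, a nucleoside diphosphate kinase, stood at 302.3, 291.8 and 287.2 CPM against 262.8, 233.2 and 241.3 CPM, a fold of 0.838 (95% interval 0.679 to 1.03) without overlap. Drug efflux and glutathione genes had a median of -0.07 over 10 tested, all 10 with intervals within 2-fold, and BCL2 family genes one of -0.02 over 15. FTL, the ferritin light chain gene, lay lower in all 3 induced libraries, at 723.2, 675.4 and 956 CPM against 642.1, 622.2 and 610 CPM. Markers of other blood lineages were scarce. Of 18 erythroid and megakaryocyte genes 11 were at 0 in every WT library, and the list summed to 11.16 to 12.05 CPM uninduced and 6.68 to 11.25 CPM induced. Of 20 T, NK and B cell genes only GNLY was at 0 throughout, and the list summed to 24.8 to 40.6 CPM against 27.5 to 56.6 CPM. Of these T, NK and B genes 5 were tested, all with positive changes, none called, and a median of 0.21 (0.021 to 0.966 over the alternatives). VPREB1 and TRAC had an unadjusted p under 0.05 in edgeR, as had 1.7% of all tested genes. VPREB1, a pre-B cell receptor gene, had no count in the 3 uninduced libraries and 13, 0 and 4 counts in the induced ones, for which no fold is given. TRAC had 9, 22 and 0 counts uninduced and 91, 2 and 27 induced, with overlapping groups. The part of these lineage markers in any difference above was not tested.

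**Figure D4:**
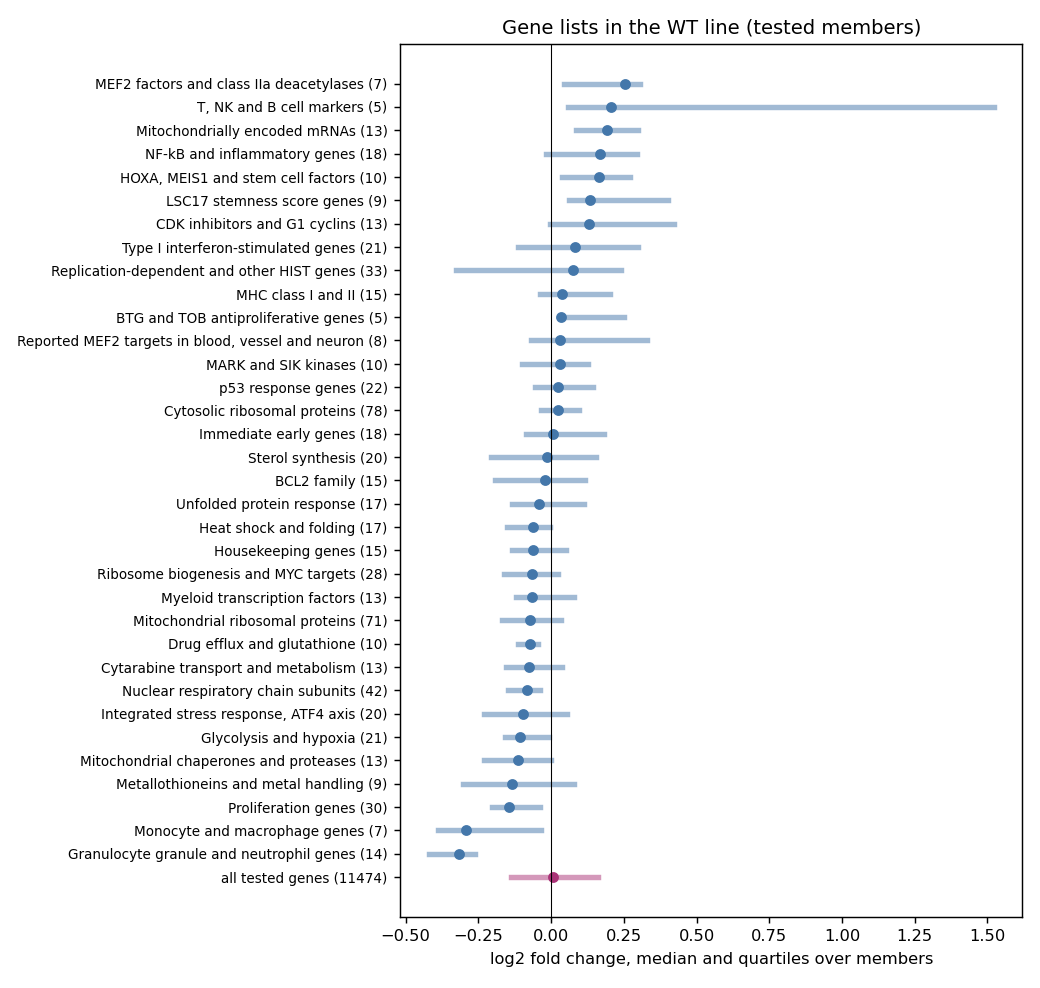
Median log2 fold change (points) and quartiles (bars) over the tested members of each gene list with at least 5 of them in the WT line, number of tested genes in brackets, and over all tested genes (bottom). Granulocyte genes have the lowest median, -0.32, and monocyte genes the next, -0.29, which ran from -0.531 to -0.013 over the alternatives.

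The S222A line shares no library with the WT line, though both enter one fit. On its induction 511 genes (4.45%) were called, 321 higher and 190 lower. The WT changes of these genes leaned the same way. Genes called in the S222A line were chosen for large changes there, so the sizes in the lines are set side by side and not compared. Of the 321, 277 were positive in the WT line, with a median log2 fold change of 0.26 against 1.29 in the S222A line, beside 5869 positive of 11474 over all genes. In 76 of them the WT induced libraries all lay above the uninduced ones and in 0 below, beside 2.81% and 2.98% of all tested genes. Of the 190, 160 were negative in the WT line, with medians of -0.18 and -0.86, and 34 lay lower without overlap and 0 higher. Chosen the other way, the 139 genes higher in the WT line at an unadjusted p under 0.05 had medians of 0.75 (WT) and 0.94 (S222A), and the 56 lower ones -0.60 and -0.36. Over the 321 genes the WT median was 0.28 between the deepest and 0.26 between the other libraries. Across all genes the log2 fold changes of the lines had a Pearson correlation of 0.36 and a Spearman correlation of 0.30, given as a description, since genes are not independent replicates and both lines show the depth pattern.

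All 6 genes called in the WT line with the term for depth were also called higher on S222A induction in the fit without it. BTG2 stood at 19.8, 25.5 and 19.7 CPM in the uninduced S222A libraries, about as high as in the induced WT ones, and at 137.8, 167.5 and 128.7 CPM when induced. Its log2 fold change was 2.73 there against 1.47 in the WT line, a difference that was not called (edgeR adjusted p = 0.157, and 0.0229 with the term for depth). NOG stood at 14.7, 15.2 and 8.76 CPM and at 137.8, 177.9 and 165.6 CPM in the S222A line, a log2 fold change of 3.56 against 1.11. SPINK2 stood at 1.56, 2.87 and 0 CPM and at 23.6, 23.4 and 24.1 CPM, RGS1 at 10.9, 7.80 and 7.67 CPM and at 89.4, 96.8 and 127.8 CPM. AHNAK stood closest between the lines, with log2 fold changes of 1.30 (S222A) and 0.96 (WT) and a difference of 0.34 ± 0.21 (SE; edgeR adjusted p = 0.874). MEF2C itself had a log2 fold change of 0.34 in the S222A line, and its difference from the WT line was not called (edgeR adjusted p = 0.949).

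**Figure D5:**
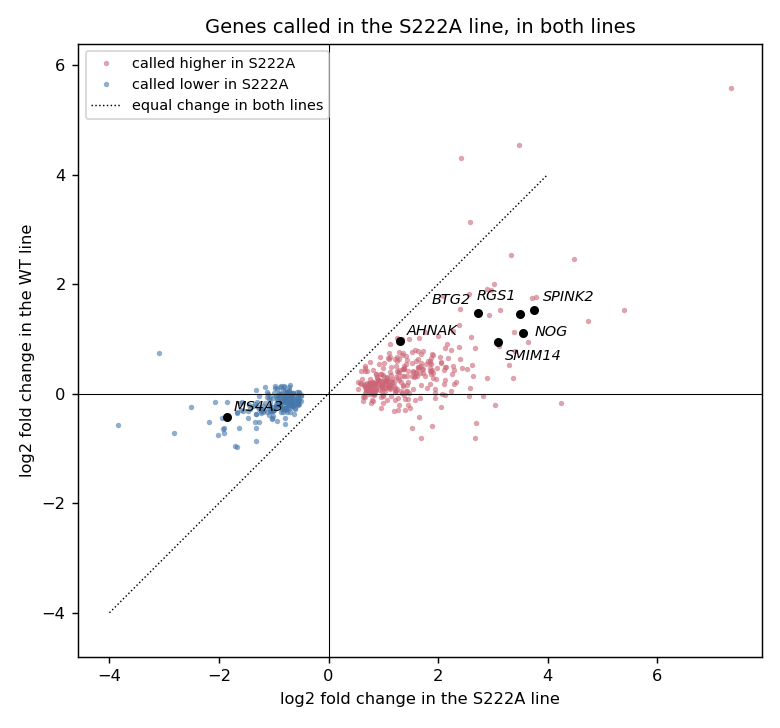
Log2 fold change on induction in the WT line (vertical) against that in the S222A line (horizontal) for the 511 genes called in the S222A line, with named genes in black and the line of equal change dotted. Of the genes called higher, 277 of 321 lie above 0 in the WT line, and most lie below the dotted line, on which the choice of genes by their S222A change bears.

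The difference between the lines was itself called in 9 genes (0.0784%), 6 with a larger change in the S222A line upward and 3 downward. They were NOG, SMIM14, HIST1H2AC, DUSP4, INSIG1 and RPS6KA5 on the one side and MS4A3, BMP8B and MARC1 on the other. With the term for depth it was called in 147 genes (1.28%), 89 and 58. In the WT line BMP8B was at 104.5, 106.4 and 108.7 CPM with vehicle and 112.4, 99.8 and 112.4 CPM with doxycycline, a fold of 1.02 (95% interval 0.842 to 1.23), and in the S222A line at 85.1, 87.8 and 87.6 CPM and at 41.2, 38.1 and 40.7 CPM. INSIG1, which retains the sterol regulator SREBP in the endoplasmic reticulum, had a fold of 1.06 (0.829 to 1.36) in the WT line, and MARC1, a mitochondrial reductase, one of 0.965 (0.784 to 1.19). DUSP4, a phosphatase of MAP kinases, stood at 7.07, 7.53 and 5.31 CPM against 7.45, 8.97 and 9.21 CPM in the WT line and rose in the S222A line from 8.89, 10.7 and 6.57 CPM to 55.4, 61.1 and 53.7 CPM.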

How the data were processed

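RNA was sequenced from 12 OCI-AML2 libraries, of which the 6 of the WT line are described. Per the labels' protocols, a TruSeq RNA kit was used for the libraries. The authors deposited raw whole-number counts per gene symbol with no normalization, and columns were matched to samples by the names given as sample descriptions. Per the submitters' processing notes, STAR 2.4, HTSeq 0.6.1 and DESeq2 were used on hg19, in roles that are not described. For annotation and strand nothing is given in the sources used here.

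Genes were kept by filterByExpr (minimum count 10) and tested with edgeR 4.0.16 (R 4.3.3) on all 12 libraries: TMM factors, a mean per group, robust quasi-likelihood F tests and Benjamini-Hochberg adjustment over 11474 genes, called under 0.05. The biological coefficient of variation was 24.8%. CPM use TMM factors and the totals of the tested genes. Marker ranges use TMM factors and the totals of all genes, and floors the totals alone. An SE is the size of the log2 fold change over the root of F, or comes from the fit's information below a log2 fold change of 0.1. Log2 fold changes use a prior count of 0.125, those within depth classes one of 2. The tests were run on simulated counts that lack the pattern of the deepest libraries, so that check does not cover it. The members, the 35 gene lists and the tests were chosen with earlier results of these data known. Genes named were drawn from MEF2C, those called, and the 12 higher and 12 lower genes without overlap with the smallest p (at least 1 log2 CPM). They were also drawn from 2 members per list with the smallest p and all MEF2 and class IIa deacetylase genes. The rest were those with the narrowest intervals and those called between the lines. Not every list, or member chosen from a list, is described in the text. Clone-style, antisense and pseudogene names were left out. Not every gene with a narrow interval is reported here. Alternatives used RLE or upper quartile factors, other filters (none, or a minimum count of 50), DESeq2 1.42.0, limma-voom (limma 3.58.1), the WT libraries alone, a replicate block, a term for or removal of the deepest libraries, and each WT library left out. Whether replicate numbers pair the libraries is not known, and the main analysis has no block for them. Promoter windows are from RefSeq (GRCh38.p14), matched by symbol for 8686 of the 11474 genes.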

Additional observations from a re-analysis of the deposited data

Results flagged for a closer look

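The effect of doxycycline differed between the lines, by the interaction test in edgeR, in 9 genes. As S222A minus WT on the log2 scale, the difference was 2.63 for HIST1H2AC, 2.44 for NOG, 2.33 for DUSP4, 2.14 for SMIM14, 1.53 for RPS6KA5 and 1.44 for INSIG1, each with a larger rise in the S222A line. It was -1.44 for MS4A3, -1.22 for MARC1 and -1.14 for BMP8B, each lower on S222A induction. Adjusted p-values (edgeR quasi-likelihood, Benjamini-Hochberg) ran from 0.0184 to 0.0458. In the WT line HIST1H2AC was at 5.55, 5.02 and 7.76 CPM with vehicle and 10.1, 7.85 and 11.8 CPM with doxycycline, and RPS6KA5 (MSK1) at 26.8, 27.6 and 26.6 CPM against 32.9, 31.4 and 39.5 CPM. HIST1H2AC belongs to a family of near-identical genes that share reads, so its value is uncertain for that reason. Leaving out single WT libraries reduced the count of such genes to between 0 and 4.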

How the results depend on the processing

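The count of called genes in the WT line, 1 in the main analysis, was 1 with RLE factors and with the stricter filter, always BTG2. It was 0 with upper quartile factors, with limma-voom, with the WT libraries only, with the replicate block, without the deepest libraries and without any single WT library (0 to 0). Genes at an unadjusted p under 0.05 then numbered 191, 199, 91, 128, 322 and 167 to 498. It was 2 with no filter (BTG2 and RGS1), 4 with DESeq2 (AHNAK, BTG2, NOG and SPINK2) and 6 with the term for the deepest libraries. BTG2 had an adjusted p of 0.0545 with upper quartile factors, 0.239 with limma-voom, 1 with the WT libraries only, 1 with the replicate block and 0.775 without the deepest libraries. Same-numbered libraries of the WT groups had correlations of -0.30, -0.53 and 0.26 between their deviations from the group means. The deepest libraries, uninduced replicate 2 and induced replicate 1, had one of 0.757. These carry different numbers, so the depth pattern enters the other correlations too. Whether the numbers pair the libraries cannot be told from these values. The count of genes that differed between the lines, 9, became 22 with no filter, 14 with the stricter filter, 36 with DESeq2, 0 with the replicate block, 147 with the term for the deepest libraries and 0 to 4 without single WT libraries. The median reach of the 95% intervals, 0.60 on the log2 scale, became 1.77 with no filter, where 31447 genes were fitted.

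Several log2 fold changes that were not called changed sign when single WT libraries were left out. Over these fits MEF2C ran from -0.009 (without uninduced replicate 2) to 0.168, MEF2A from -0.021 (without uninduced replicate 2) to 0.699, and HDAC4 from -0.509 to 0.126, with 0.001 without uninduced replicate 3 and 0.126 without induced replicate 1. HDAC7 ran from -0.326 (without induced replicate 1) to 0.976, NSL1 from -0.007 to 0.054, BMP8B from 0.000 to 0.084, INSIG1 from -0.040 to 0.188 and MARC1 from -0.152 to 0.027. MEF2D ran from -0.305 to 0.234, and it was -0.005 with limma-voom, -0.019 with the replicate block, -0.005 with the term for the deepest libraries and -0.074 without those libraries. The cause of these changes was not tested. Of the other comparisons of a named gene with its alternatives, 1090 kept their direction and side of the threshold, and of the list medians 561 moved by less than the spread and 14 by more. The median of all genes stayed between -0.011 and 0.017. A library of 875710 counts limits what can be said of genes below 2 log2 CPM. With 3 libraries a group, the BTG2 call did not outlast the loss of any single WT library.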
